A study of Mus musculus with 2 samples.

Results

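The 10 genes described here make or cross-link elastic fibres, the stretchable part of the extracellular matrix. They were taken as a list by gene symbol, Eln, Fbn1, Mfap4, Mfap5, Fbln1, Fbln2, Fbln5, Lox, Loxl1 and Loxl2, out of 25814 genes with counts in at least 1 library, and all 10 had counts in both libraries. They were measured by single-cell RNA sequencing in Nes-GFP+ cells, that is, cells that make green fluorescent protein under regulatory elements of Nestin, an intermediate filament gene of neural stem cells that several other cell types also use. The cells came from the brain and the lung of adult Nestin-GFP mice aged about 6 weeks, were freed with trypsin and sorted by flow cytometry, and made 1 library per tissue with a 3′ droplet kit. According to the labels the mice were C57BL/6, whereas the study's methods describe breeding with CD1 or mixed CD1 and C3H stock. No animal carried a treatment, and the sort left out cells without the reporter, so each class below holds its Nes-GFP+ fraction alone. The number of mice pooled was not given in the sources used here.

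An elastic fibre has a core of cross-linked elastin laid down on a scaffold of fibrillin microfibrils. Fibulins and microfibril-associated proteins bring the elastin precursor, tropoelastin, to that scaffold, and lysyl oxidases, enzymes that need copper, oxidise its lysines so that the molecules become joined. In the lung these fibres give the airways, vessel walls and alveolar septa their recoil, and alveolar myofibroblasts and smooth muscle cells are known makers of elastin. The brain has little elastin outside its larger arteries and its coverings.

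The brain library held 4640 cell barcodes and the lung library 5981. After the filter described in the study's methods, 4151 brain cells (median 4209 UMIs, the unique molecular identifiers that count single molecules) and 5608 lung cells (median 5585) were kept. Both libraries shared 15 barcodes, 11 of them among the kept cells. With 1 library per tissue there are no replicates, so there was no test and no p-value. A level is given as CPM, the UMIs of a gene over all UMIs of a class of cells, on the scale usual for that unit, and each interval is an exact 95% interval that covers counting error alone. Any difference between brain and lung is also a difference between 2 libraries, and the tissue and the library cannot be told apart. Cell classes were built from clusters by marker genes and are called "-like". The 10 genes, 19 related genes and the cell cycle genes were kept out of the clustering, so their values did not shape the classes. Each class had its own marker list as its highest, except the lung epithelial-like cells, with more of the lymphatic list, and the brain cells like oligodendrocyte precursors, with more of the list for mature oligodendrocytes. The summed level of the 9 smooth muscle markers was 26474 CPM in lung smooth muscle-like cells, 4846 CPM in myofibroblast-like cells and 1623 CPM in pericyte-like cells, and that of the 10 endothelial markers was 11471 CPM in lung endothelial-like cells and 203 CPM in pericyte-like cells. Of the lung cells, 1765 were in 7 clusters that took no name, and these are given by number.

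The lung held most of the signal. Over all kept cells Eln was at 497 CPM in lung and 4.61 CPM in brain, Mfap4 at 852 CPM and 15.6 CPM, and Fbn1, which encodes fibrillin-1, at 600 CPM and 6.05 CPM. The smallest gaps were those of Fbln2, at 74.7 CPM in lung and 25.2 CPM in brain, and Fbln1, at 266 CPM and 66.3 CPM. These 2 fibulins were also the members with the most UMIs in the brain library, 491 and 1295. Levels over a whole library depend on the mix of cells sorted. Fibroblast-like and mural-like cells were 1.59% and 4.07% of the kept brain cells. Pericyte-like, myofibroblast-like and matrix fibroblast-like cells were 37.6%, 11.8% and 10.4% of the kept lung cells.

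**Figure D1:**
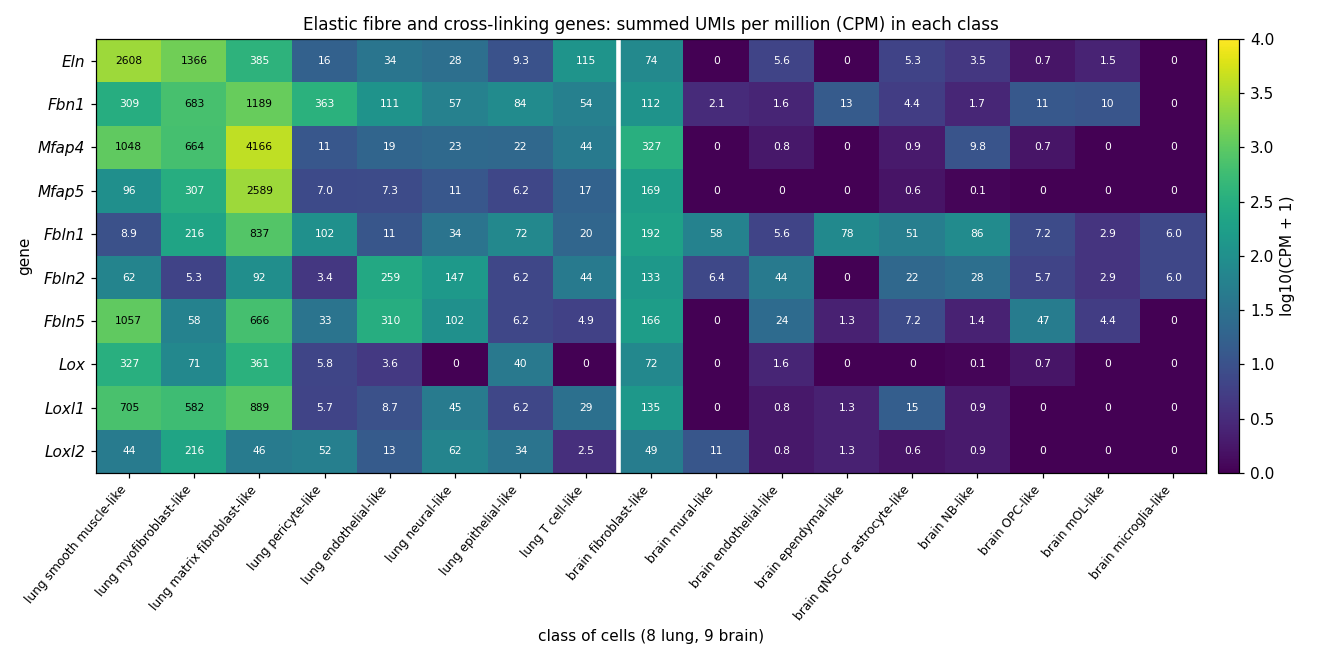
Level of the 10 genes in the 8 lung and 9 brain classes. Each cell of the grid gives the level in CPM, and the colour its log10(CPM + 1). Of these classes, Eln was highest in lung smooth muscle-like cells (2608 CPM) and Mfap4 in lung matrix fibroblast-like cells (4166 CPM), while brain mural-like cells had 0 UMIs of 6 of the 10 genes.

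Eln, the gene of tropoelastin (chr5:134702593-134747323, minus strand, GRCm38), was highest, among the named classes, in the 75 lung smooth muscle-like cells. There its 1172 UMIs made 2608 CPM (2460 to 2761). The 663 lung myofibroblast-like cells followed at 1366 CPM (1331 to 1401), and the 586 matrix fibroblast-like cells at 385 CPM (368 to 402). The intervals of these 3 classes did not overlap. In the 2110 lung pericyte-like cells Eln was at 16.2 CPM (13.9 to 18.8), and in the 219 endothelial-like cells at 34.2 CPM (25.2 to 45.5). T cells are not known to make elastin, yet the 122 lung T cell-like cells showed 115 CPM (84.6 to 153). All 47 of those UMIs sat in 4 cells, 33 of them in 1 cell. The same uneven spread was found in the brain, where the 66 fibroblast-like cells had 29 Eln UMIs, or 74.1 CPM (49.7 to 107), and all 29 were in 4 cells. The 169 brain mural-like cells had 0 Eln UMIs, which allows a level of up to 6.42 CPM at 3 counts.

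The share of cells with an Eln UMI ordered these 3 classes in the same way. To compare shares, each cell was thinned to 1000 UMIs and shallower cells were left out. At that depth 85.3% of 75 smooth muscle-like cells (interval 75.3% to 92.4%), 63.5% of 663 myofibroblast-like cells (59.7% to 67.2%) and 26.8% of 586 matrix fibroblast-like cells (23.2% to 30.6%) had an Eln UMI. Without thinning these shares were 100%, 93.1% and 74.4%. Pericyte-like cells were at 1.23% of 2108 cells after thinning (0.807% to 1.80%) and T cell-like cells at 2.48% of 121 cells (0.514% to 7.07%), intervals that overlapped, with median depths before thinning of 5263 and 1992.5 UMIs. The share of pericyte-like cells with an Eln UMI thus did not stand above that of a class not known to make elastin, and the part of free RNA in either was not tested.

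Elastin was uneven within the lung classes. The 2 myofibroblast-like clusters differed, with 1589 CPM (1548 to 1631) in cluster 2, whose 10 leading genes held Aspn and Fgf18 and also Scgb3a2 and Scgb1a1, genes of airway club cells, and 347 CPM (307 to 391) in cluster 14, led by mitotic genes such as Top2a and Mki67. Among the clusters without a name, cluster 10 had the highest level, 2707 CPM (2534 to 2890), with an interval that overlapped that of the smooth muscle-like cells, in 186 shallow cells with a median of 1740 UMIs whose best matching list was the myofibroblast one. Cluster 8, with 201 cells led by Fabp7, Parm1 and Dlk1 and closest to the pericyte list, had 1221 CPM (1157 to 1287). Cluster 3, with 448 cells that matched the myofibroblast list best and were led by Htra1 and Pdgfra, had 907 CPM (874 to 940). Cluster 9, 187 shallow cells led by Sftpc and other surfactant genes of the alveolar epithelium, had 1175 CPM (1074 to 1282) of Eln and 1278 CPM (1173 to 1390) of Fbn1, and what part cells or free RNA of other types have in these values was not tested. None of the 4 clusters named pericyte-like came near these values, with 9.79 to 53.0 CPM.

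**Figure D2:**
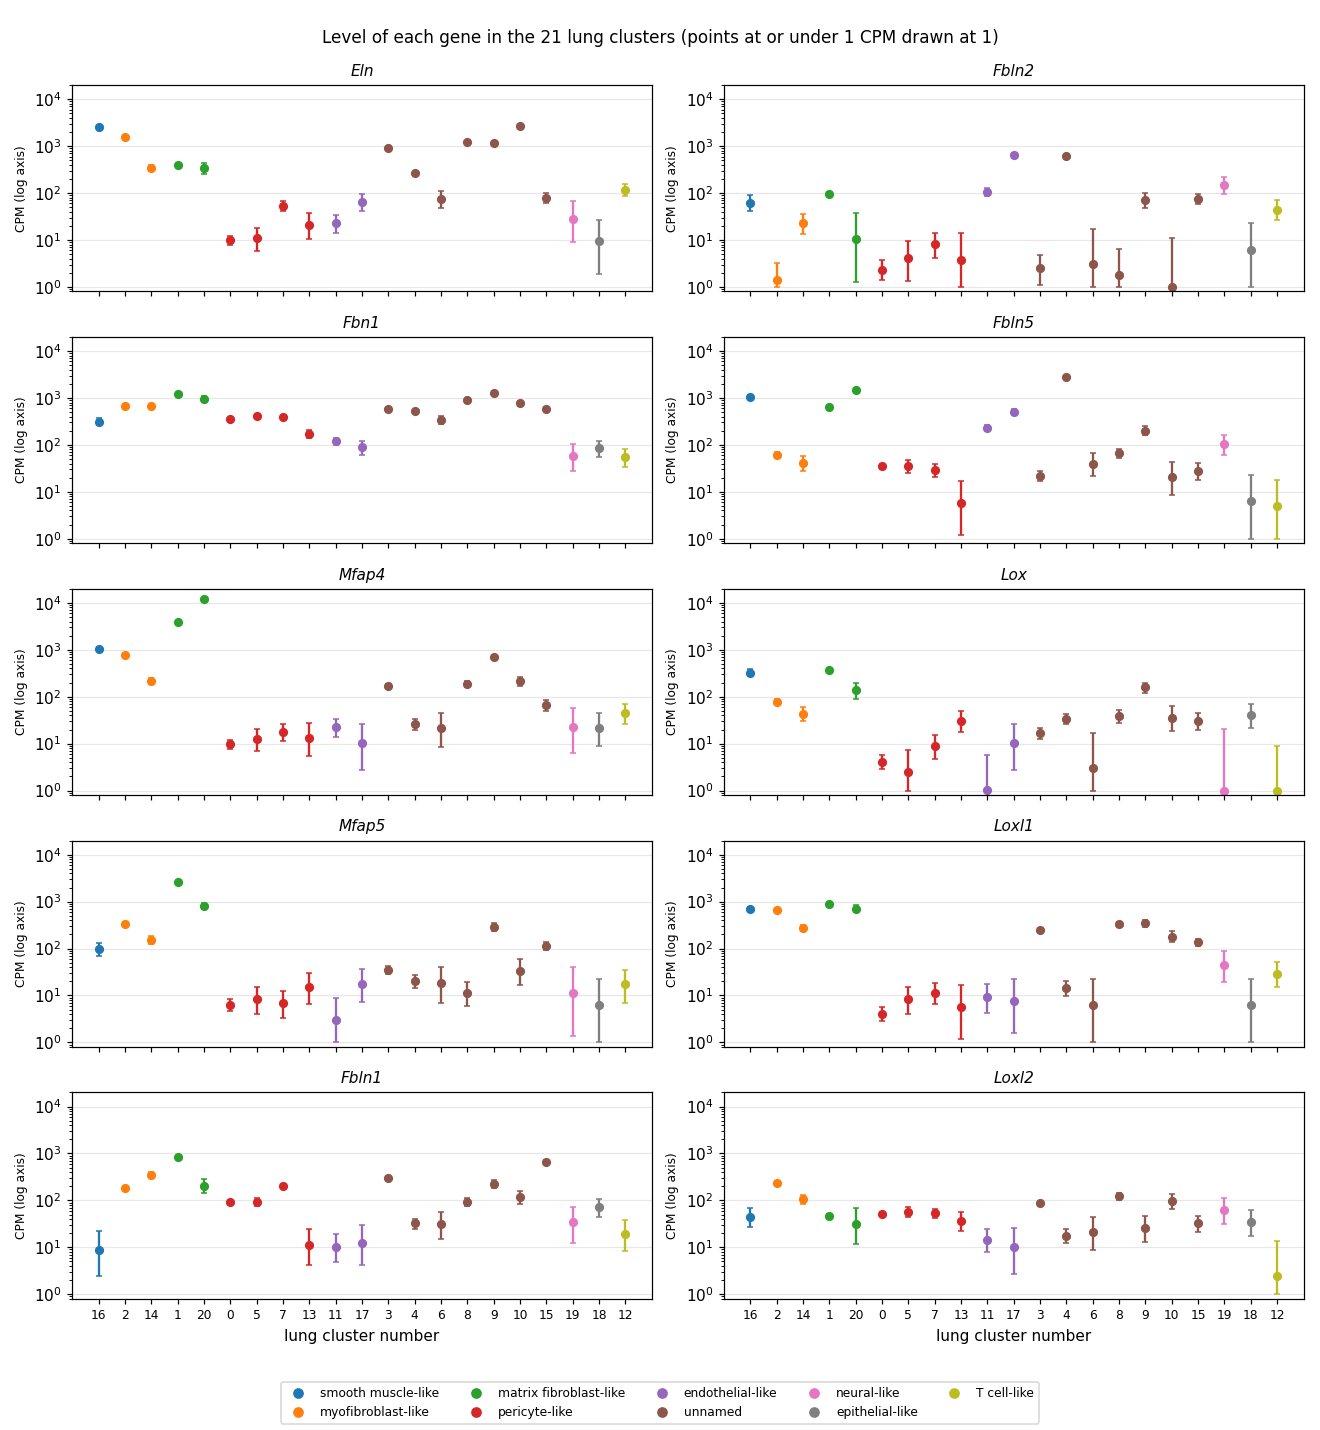
Level of each gene (CPM, log axis) in the 21 lung clusters, ordered and coloured by class, with exact 95% intervals and points at or under 1 CPM drawn at 1. Eln was high in clusters 16, 2, 10, 8 and 9 and low in the pericyte-like clusters 0, 5, 7 and 13, and Fbln5 was highest in cluster 4 (2761 CPM).

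Fbn1 (chr2:125300594-125507993, minus strand) had another distribution. Among the named classes it was highest in matrix fibroblast-like cells at 1189 CPM (1160 to 1219), then in myofibroblast-like cells at 683 CPM (659 to 708), and it stood at 363 CPM (351 to 374) in pericyte-like cells. Smooth muscle-like cells had 309 CPM (260 to 365), an interval that overlapped that of the pericyte-like cells. After thinning, 29.7% of pericyte-like cells (27.8% to 31.7%) had an Fbn1 UMI against 2.48% of T cell-like cells. Within the pericyte-like class 3 clusters lay between 364 and 412 CPM, and cluster 13, led by Rgs5 and Steap4, lay at 171 CPM (138 to 211). Brain fibroblast-like cells had 112 CPM (81.7 to 151), and the 169 brain mural-like cells together had 1 UMI.

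Mfap4 and Mfap5 encode proteins that bind the microfibrils. Mfap4 (chr11:61485431-61488900, plus strand) reached 4166 CPM (4111 to 4221) in matrix fibroblast-like cells, 1048 CPM (955 to 1147) in smooth muscle-like cells and 664 CPM (640 to 688) in myofibroblast-like cells. Nearly every matrix fibroblast-like cell showed it, 92.7% after thinning (90.2% to 94.6%). Mfap4 overlaps Mapk7 on the opposite strand, where 6 Mapk7 exons share bases with it, and whether the authors counted by strand is not given in the sources used here. Mapk7 had 655 UMIs in the lung library, against 27103 for Mfap4 in the kept lung cells. Mfap5 (chr6:122505845-122529290, plus strand) was still more restricted, at 2589 CPM (2546 to 2633) in matrix fibroblast-like cells, 307 CPM (291 to 324) in myofibroblast-like cells and 95.7 CPM (69.2 to 129) in smooth muscle-like cells. Pericyte-like cells had 11.3 CPM of Mfap4 (9.40 to 13.5) and 7.02 CPM of Mfap5 (5.54 to 8.77). T cell-like cells had 44.1 CPM of Mfap4 (26.1 to 69.7) and 17.2 CPM of Mfap5 (6.90 to 35.3), the latter overlapping the pericyte interval, and the 4 cells with the most UMIs of each gene held 13 of their 18 Mfap4 UMIs and 6 of their 7 Mfap5 UMIs.

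The 2 matrix fibroblast-like clusters differed in both genes. Cluster 20 had 28 cells, with 11869.5 CPM of Mfap4 (11386 to 12368) against 3881 CPM (3828 to 3935) in the 558 cells of cluster 1. Mfap5 went the other way, 812 CPM (689 to 950) in cluster 20 and 2655 CPM (2611 to 2700) in cluster 1. Cluster 20 also carried more of a list of genes for Col13a1-type fibroblasts, 5950 against 325 CPM summed, and cluster 1 more of a list for Col14a1-type fibroblasts, 8864 against 3510 CPM. Col13a1 and Col14a1 are collagen genes that mark separate fibroblast populations of the mouse lung.

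Of the fibulins, small glycoproteins that bind elastin, fibrillin and basement membranes, Fbln1 (chr15:85205949-85286535, plus strand) was, of the named classes, highest in lung matrix fibroblast-like cells at 837 CPM (813 to 862). It then stood at 216 CPM (202 to 230) in myofibroblast-like cells, 192 CPM (151 to 240) in brain fibroblast-like cells and 102 CPM (96.2 to 108) in lung pericyte-like cells, where the first 2 intervals overlapped. It was near absent from lung smooth muscle-like cells, with 4 UMIs or 8.90 CPM (2.43 to 22.8). Fbln1 was also the member with the widest presence in brain. Neuroblast-like (NB-like) cells had 85.5 CPM, ependymal-like cells 78.3 CPM, mural-like cells 57.8 CPM (38.1 to 84.05) and the cells like quiescent neural stem cells or astrocytes 51.2 CPM, against 5.55 CPM in brain endothelial-like cells. Among pericyte-like clusters Fbln1 ranged from 11.4 CPM in cluster 13 to 203 CPM in cluster 7, which was led by mitotic genes.

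Fbln2 (chr6:91212455-91272540, plus strand), a fibulin of vessel walls and basement membranes, was highest among the named classes in lung endothelial-like cells at 259 CPM (233 to 288). Within that class it was at 108 CPM (87.9 to 130) in cluster 11, led by Scn7a and Ctla2a, and at 634 CPM (558 to 718) in cluster 17, led by Fabp4 and Rbp7. The 396 cells of cluster 4, which took no name, had 603 CPM (570 to 637). Pericyte-like and myofibroblast-like cells had 3.37 and 5.30 CPM. T cell-like cells had 44.1 CPM and 8.26% of them a UMI after thinning (4.03% to 14.7%). Matrix fibroblast-like cells stood above that level in CPM, at 92.1 (84.2 to 100.6), but not in share, at 7.68% (5.66% to 10.1%), so no order is read between these classes.

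Fbln5 (chr12:101746565-101819055, minus strand), which binds tropoelastin and is needed to assemble the fibre, combined smooth muscle, fibroblast and endothelial cells. It was at 1057 CPM (964 to 1156) in smooth muscle-like cells, 666 CPM (644 to 688) in matrix fibroblast-like cells and 310 CPM (281 to 340) in endothelial-like cells, but at 58.1 CPM (51.2 to 65.8) in myofibroblast-like cells, the named class with the second highest Eln. Its highest level in any lung cluster was in cluster 4, 2761 CPM (2691 to 2833), where 82.1% of 391 cells (77.9% to 85.8%) had a UMI after thinning. In the brain Fbln5 was at 166 CPM (128 to 212) in fibroblast-like cells and at 47.2 CPM in cells like oligodendrocyte precursors, where 60 of the UMIs were in cluster 14, led by Enpp6 and Gpr17. Brain mural-like cells had 0 UMIs.

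The sequences upstream of Fbln1 and Fbln5 are shown because these fibulins parted most clearly between smooth muscle-like cells, where Fbln5 was high and Fbln1 near absent, and the brain, where Fbln1 was the more widespread. Promoter windows from RefSeq (GRCm38) were at hand for 4 of the 10 genes, and those of Fbn1 and Fbln2 are not printed because they overlap annotated exons. Each run gives the 250 bases before the RefSeq start, 5′ to 3′ on the strand of the gene, with matches to the GC box (GGGCGG or its complement CCGCCC) and to the TATA box (TATAAA or TTTATA) in capitals, neither motif overlapping the other. The first of 2 windows listed for each gene was taken. The window of Fbln1 is chr15:85205699-85205948, plus strand. The window of Fbln5 is chr12:101819120-101819369, minus strand, and its RefSeq start lies 64 bases upstream of the GENCODE one.
Fbln1: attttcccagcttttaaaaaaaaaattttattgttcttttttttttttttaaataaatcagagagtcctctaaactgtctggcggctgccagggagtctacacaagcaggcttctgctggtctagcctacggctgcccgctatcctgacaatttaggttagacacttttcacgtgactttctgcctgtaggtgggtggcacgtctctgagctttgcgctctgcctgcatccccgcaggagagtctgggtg
Fbln5: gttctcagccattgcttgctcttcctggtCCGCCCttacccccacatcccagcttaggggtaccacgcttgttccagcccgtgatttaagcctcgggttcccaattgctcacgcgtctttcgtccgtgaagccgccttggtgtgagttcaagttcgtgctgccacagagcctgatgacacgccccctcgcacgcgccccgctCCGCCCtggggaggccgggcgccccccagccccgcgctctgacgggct
The Fbln5 window had 2 GC boxes and 65.2% G and C, and the Fbln1 window had 0 GC boxes and 46.4% G and C. Neither held a TATA box. The SMAD box (GTCTG or CAGAC) had 2 matches in the Fbln1 window and 0 in that of Fbln5, and the E-box (CANNTG) had 1 match in each. A GC box was present in 32.7% of 32851 promoter windows of this length a TATA box in 12.4%, a SMAD box in 42.2% and an E-box in 66.2%, and the median window had 52.4% G and C. These matches describe letters in a window and say nothing about binding.

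Among the oxidases, Lox and Loxl1 went with the fibroblast-like and smooth muscle-like cells. Lox (chr18:52516067-52529867, minus strand), the founding member of the family, was at 361 CPM (345 to 378) in matrix fibroblast-like cells and 327 CPM (276 to 384) in smooth muscle-like cells, intervals that overlapped, and at 71.5 CPM (63.8 to 79.9) in myofibroblast-like cells. Loxl1 (chr9:58287738-58313186, minus strand), known for its part in renewing elastin, was at 889 CPM (863 to 914), 705 CPM (630 to 787) and 582 CPM (559 to 605) in the same 3 classes. In pericyte-like cells both were close to nothing, with 5.83 CPM of Lox and 5.65 CPM of Loxl1. Loxl1 stood at 29.4 CPM in T cell-like cells, where 7 of its 12 UMIs were in 1 cell, and Lox had 0 UMIs there, which allows up to 7.35 CPM.

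Loxl2 (chr14:69609068-69695834, plus strand), which acts on collagens including those of basement membranes, differed from them. Of the named classes it was highest in myofibroblast-like cells at 216 CPM (202 to 230), and pericyte-like cells at 52.1 CPM (48.0 to 56.6), matrix fibroblast-like cells at 45.7 CPM (40.2 to 51.8) and smooth muscle-like cells at 44.5 CPM (27.2 to 68.7) had overlapping intervals. Brain fibroblast-like cells, at 48.6 CPM (29.2 to 75.9), overlapped with these lung classes. After thinning, 21.7% of myofibroblast-like cells (18.6% to 25.1%) and 4.55% of pericyte-like cells (3.70% to 5.53%) had a Loxl2 UMI, against 0 of 121 T cell-like cells.

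**Figure D3:**
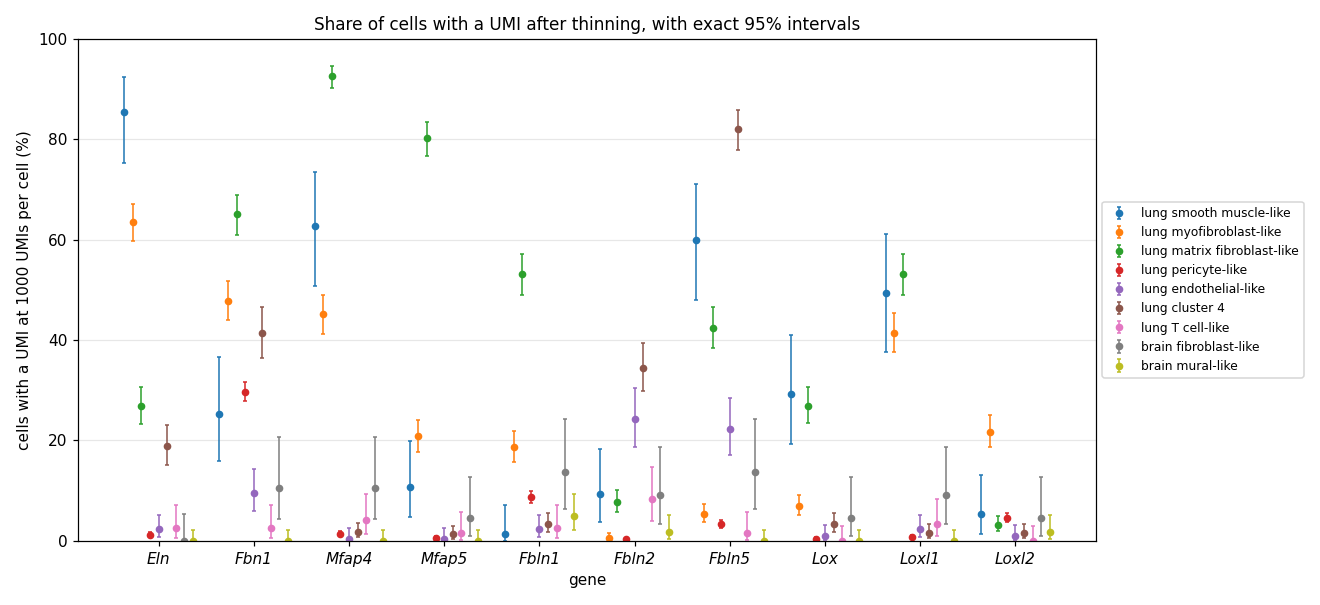
Share of cells with a UMI of each gene (percent of cells, after thinning each cell to 1000 UMIs) in 7 lung and 2 brain groups, with exact 95% intervals. Mfap4 and Mfap5 stood highest in matrix fibroblast-like cells (92.7% and 80.2%), Eln in smooth muscle-like cells (85.3%) and Fbln5 in lung cluster 4 (82.1%).

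Single cells carried several members together in some classes. At 1000 UMIs the median matrix fibroblast-like cell had UMIs of 5 of the 10 genes, the median myofibroblast-like and smooth muscle-like cell of 3, and the median pericyte-like and endothelial-like cell of 0. At least 4 members were found in 75.8% of matrix fibroblast-like cells, 49.3% of smooth muscle-like cells and 28.4% of myofibroblast-like cells. In the 2108 pericyte-like cells that share was 0, and in brain fibroblast-like cells it was 2 of 66 cells. No member was found in 56.1% of pericyte-like cells and in 51.5% of brain fibroblast-like cells, but in 0.341% of matrix fibroblast-like cells. Clusters 4 and 8, which took no name but matched the endothelial and the pericyte list best, had a median of 2 members per cell. At least 4 members were found in 6.65% of 391 cells of cluster 4 and 8.96% of 201 cells of cluster 8, and none in 5.63% and 20.4%.

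The comparisons below count a gene as higher or lower where its CPM differed at least 2-fold between 2 classes that together had at least 20 UMIs of it. Lung matrix fibroblast-like cells exceeded lung pericyte-like cells in 9 of the 10 genes and were lower in 0, where 13.9% of 12804 genes were higher and 20.4% lower. Mfap4 and Mfap5 each differed 369-fold (309 to 443 for Mfap4 and 295 to 468 for Mfap5), Loxl1 157-fold (122 to 205), Lox 62.0-fold (48.3 to 80.8) and Eln 23.7-fold (20.3 to 27.8). The exception was Loxl2, with a ratio of 0.876 (0.752 to 1.02). The median log2 ratio of the 10 genes was 4.67 and that of all genes tested -0.33. With cluster 8 counted as pericyte-like, as a looser naming rule had it, Eln was at 129 CPM and Loxl1 at 35.8 CPM in that class, and the ratios were 2.98 for Eln, 24.8 for Loxl1, 149 for Mfap4 and 40.5 for Lox. With cells chosen by markers they were 2.80 for Eln and 15.0 for Loxl1. With 5% of the mean profile removed, more was taken than pericyte-like cells had of Eln and Loxl1, and both fell to 0. Set against a floor of 3 counts over that class, the ratios became 1316 for Eln and 3197 for Loxl1. These values are set by the subtraction and the floor and are no lower bounds. Over the alternatives the Mfap5 ratio ran from 50.7 to 9379. The counting intervals do not cover these shifts.

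Myofibroblast-like cells exceeded pericyte-like cells in 7 of the 10 genes and were lower in 0, against 12.8% of 12597 genes higher and 12.1% lower. Loxl1 differed 103-fold (80.0 to 135) and Eln 84.2-fold (72.5 to 98.3). Fbn1, Fbln2 and Fbln5 did not reach 2-fold, with ratios of 1.88, 1.57 and 1.76. Under the looser naming rule, where pericyte-like cells held cluster 8 and myofibroblast-like cells held cluster 3, the ratios were 12.3 for Loxl1 and 9.05 for Eln. With cells chosen by markers the Loxl1 ratio was 7.94. Against the same floor, with 5% of the mean profile removed, the ratios were 2075 for Loxl1 and 4903 for Eln, again set by the subtraction and the floor.

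Matrix fibroblast-like cells were higher than myofibroblast-like cells in 6 genes, Mfap4, Mfap5, Fbln1, Fbln2, Fbln5 and Lox, and lower in 2, Eln and Loxl2, where 9.65% of 11936 genes were higher and 15.3% lower. Fbln5 was 11.5-fold higher (10.1 to 13.1) and Mfap5 8.44-fold (7.97 to 8.93). Eln had a ratio of 0.282 (0.268 to 0.296) and Loxl2 one of 0.212 (0.183 to 0.244). Fbn1 and Loxl1 were within 2-fold, at 1.74 and 1.53, but Loxl1 passed it at 2.01 under the looser naming rule and at 2.12 with no upper limit on genes per cell. The looser rule put Mfap5 at 13.6.

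Smooth muscle-like cells exceeded pericyte-like cells in 7 genes and were lower in 1, against 11.2% of 11912 genes higher and 20.4% lower. Eln was 161-fold higher (137 to 189), Loxl1 125-fold (94.8 to 167) and Fbln5 32.0-fold (27.9 to 36.8). With cluster 8 among the pericyte-like cells these ratios were 20.2, 19.7 and 29.2. With cells chosen by markers the ratios were 19.0 for Eln and 10.9 for Loxl1. With 5% of the mean profile removed they were 9439 and 2524 against the floor, set by the subtraction and the floor. Over the alternatives the Fbln5 ratio ran from 14.1 to 68.0. The gene that was lower was Fbln1, with a ratio of 0.0872 (0.0237 to 0.224). Fbn1 and Loxl2 both had a ratio of 0.853, with intervals that held 1 for Fbn1 (0.715 to 1.01) and for Loxl2 (0.517 to 1.33).

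**Figure D4:**
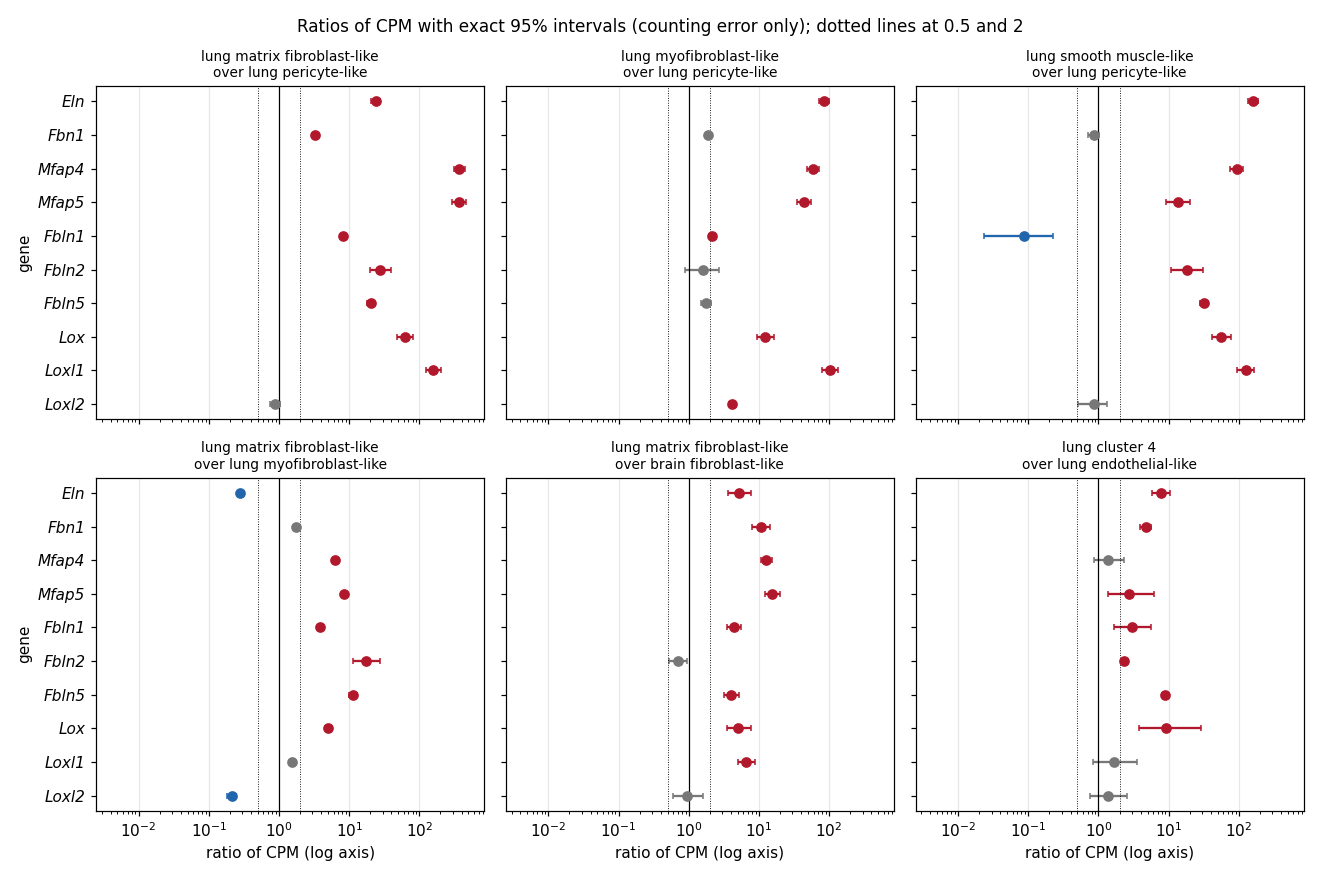
Ratios of CPM for the 10 genes in 6 comparisons (log axis), with exact 95% intervals for counting error. Red points are at least 2-fold higher in the first class, blue points at least 2-fold lower, and grey points neither. Loxl2 was the one gene that was not higher in lung matrix fibroblast-like than in pericyte-like cells (0.876).

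Against pericyte-like cells, lung endothelial-like cells were higher in 3 genes, Fbln2 (76.9-fold, 54.7 to 111), Fbln5 (9.38-fold, 8.14 to 10.8) and Eln (2.11-fold, 1.496 to 2.92), and lower in 3, Fbn1, Fbln1 and Loxl2, where 13.7% of 12225 genes were higher and 17.2% lower. The Eln level of endothelial-like cells did not stand above that of T cell-like cells. It was 34.2 CPM (25.2 to 45.5), with 20 of 47 UMIs in 4 cells, against 115 CPM in T cell-like cells, where 4 cells held all 47 UMIs, and the shares after thinning were 2.28% (0.745% to 5.25%) and 2.48%. The looser naming rule changed both classes, with cluster 4 in the endothelial-like and cluster 8 in the pericyte-like class. The ratios were then 145 for Fbln2, 49.8 for Fbln5, 1.35 for Eln (174 over 129 CPM), 0.868 for Fbn1 and 0.237 for Fbln1. Splitting the class by arterial genes left 187 cells with at least 2 such genes and 32 without, and of 5 members with enough counts 1 was higher (Fbn1, 2.20-fold, 1.09 to 5.20) and 1 lower (Eln, ratio 0.261, 0.137 to 0.518), against 14% of 7543 genes higher and 5.62% lower. The Eln ratio turned to 1.28 where cells were chosen by markers and to 1.32 where cluster 4 was included. No member was higher with called doublets removed or with equal weight per cell, and over the alternatives the Fbn1 ratio fell as low as 1.80. Fbln5 and Fbln2 were at ratios of 0.961 (0.710 to 1.33) and 0.766 (0.565 to 1.06), but with cluster 4 included Fbln5 was at 4.84, Fbn1 at 4.61 and Fbln2 at 1.18.

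Cluster 4 matched the endothelial list best but took no name. All 10 endothelial markers were found in at least 20% of its 396 cells, and it was left out because its 10 leading genes held Lyve1, on the lymphatic list, and none of the endothelial markers. Its other leading genes included Vwf, Gja5, Hey1 and Sox17. Its summed level of arterial genes was 4604 CPM, against 2957 CPM in endothelial-like cluster 11 and 1819 CPM in cluster 17. Of the 10 genes, 7 were higher in cluster 4 than in endothelial-like cells and 0 lower, where 6.03% of 9767 genes were higher and 5.26% lower. Fbln5 differed 8.92-fold (8.08 to 9.87), Eln 7.72-fold (5.72 to 10.6), from 34.2 to 264 CPM, and Fbn1 4.68-fold (3.95 to 5.58), from 111 to 518 CPM. Lox was 9.26-fold higher (3.79 to 29.4), although at a level of 33.7 CPM. Mfap4, Loxl1 and Loxl2 were within 2-fold.

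Clusters 3 and 8, also without a name, were compared with the class whose list they matched best. Clusters 6, 9, 10 and 15 were not compared. Cluster 3 was lower than myofibroblast-like cells in 7 of the 10 genes and higher in 0, against 6.29% of 11292 genes lower and 2.11% higher, and Mfap5 had the smallest ratio, 0.113 (0.0926 to 0.138). Eln, Fbn1 and Fbln1 stayed within 2-fold there, with ratios of 0.664, 0.862 and 1.42. Cluster 8 was higher than pericyte-like cells in 7 genes and lower in 0, against 7.21% of 11937 genes higher and 9.63% lower. Eln differed 75.2-fold (64.3 to 88.4) and Loxl1 57.9-fold (44.1 to 77.0), while Mfap5 and Fbln1 were at ratios of 1.63 (0.830 to 2.95) and 0.896 (0.726 to 1.10). The summed level of contractile genes was 11817 CPM in cluster 8 and 1316 to 5996 CPM in the 4 pericyte-like clusters.

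Within the matrix fibroblast-like class, cells were also sorted one by one by the Col13a1-type and Col14a1-type gene lists. The 559 Col14a1-type cells were higher than the 21 Col13a1-type cells in 5 genes and lower in 1, where 10.1% of 10460 genes were higher and 16% lower. The one that was lower was Mfap4, at 3897 against 13353 CPM, a ratio of 0.292 (0.278 to 0.306). Mfap5 was 6.46-fold higher (4.99 to 8.51), Fbln1 6.38-fold (4.08 to 10.6) and Lox 3.72-fold (2.21 to 6.82). Fbln2 was 4.47-fold higher against a floor of 3 counts, since the 21 cells had 0 UMIs of it. Loxl2 rested on 3 UMIs there, with a ratio of 2.15 (0.726 to 10.5). Eln, Fbn1, Fbln5 and Loxl1 were within 2-fold.

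In the brain the 10 genes separated fibroblast-like from mural-like cells. Mural cells are the pericytes and smooth muscle cells of vessels. All 10 members were higher in the 66 fibroblast-like cells than in the 169 mural-like cells, where 10.3% of 6487 genes were higher and 20.1% lower. Where mural-like cells had 0 UMIs, the ratio was taken against a floor of 3 counts. Mfap4, with 128 UMIs (327 CPM), was then 51.0-fold higher, Mfap5 (66 UMIs) 26.3-fold, Fbln5 (65 UMIs) 25.9-fold and Loxl1 (53 UMIs) 21.1-fold. Eln and Lox, with 29 and 28 UMIs, were 11.6-fold and 11.2-fold higher. Over the alternatives the lowest values were 36.6 for Mfap4, 15.8 for Mfap5, 22.0 for Fbln5, 14.3 for Loxl1, 6.23 for Eln and 9.23 for Lox. The smallest differences were those of Fbln1, 3.32-fold (2.11 to 5.36), and Loxl2, 4.54-fold (1.64 to 15.6). A few cells carried much of this: 4 cells held 98.5% of the Mfap5 UMIs, 61.7% of the Mfap4 UMIs and 62.3% of the Loxl1 UMIs. All 4 cells with an Eln UMI also had UMIs of Fbln1, Fbln5 and Lox. Of the 169 mural-like cells, 9 carried contractile genes, too few for a comparison, and they held 5 Fbln1 UMIs and 0 UMIs of Eln.

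The level of the matrix genes in fibroblast-like cells was compared across the 2 tissues. Lung matrix fibroblast-like cells were higher than brain fibroblast-like cells in 8 genes and lower in 0, where 15.6% of 10829 genes were higher and 16.4% lower. Mfap5 differed 15.3-fold (12.1 to 19.9), Mfap4 12.7-fold (10.7 to 15.3), Fbn1 10.6-fold (7.87 to 14.6) and Eln 5.19-fold (3.60 to 7.77). Over the alternatives these ratios ran from 12.2 to 24.0, 9.40 to 17.9, 9.19 to 12.8 and 4.88 to 9.50. Loxl2 had a ratio of 0.941 (0.590 to 1.59). Fbln2 was lower in lung by less than 2-fold, with a ratio of 0.693 (0.520 to 0.941).

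The mural contrast across tissues turned on Fbn1. Lung pericyte-like cells were higher than brain mural-like cells in 4 genes and lower in 0, against 13.5% of 11941 genes higher and 16.8% lower. Fbn1 had 3978 UMIs in the lung class and 1 in the brain class, a ratio of 169 (30.4 to 6696), or 51.0 to 336 over the alternatives. Loxl2 was 4.87-fold higher (2.08 to 15.1). Against a floor of 3 counts in the brain class, Fbln5 was 5.14-fold higher and Eln 2.53-fold, or 20.2-fold with cluster 8 in the lung class. Over the alternatives these 2 ratios fell as low as 2.38 and 2.29. The Eln level of lung pericyte-like cells, 16.2 CPM, did not stand above the 115 CPM of T cell-like cells of that library. Shares after thinning were 1.23% and 2.48%. Fbln1 did not reach 2-fold, at 1.77 (1.21 to 2.69). The count of higher genes was 8 with coarser clusters and 9 where cells were chosen one by one by markers. The remaining 5 genes were at 3.37 to 11.3 CPM in lung pericyte-like cells.

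Lung and brain endothelial-like cells differed in the same direction. Of the 6 members with at least 20 UMIs over both classes, 5 were higher in lung and 0 lower, against 11.6% of 9462 genes higher and 11.8% lower. Fbn1 was 69.8-fold higher (19.0 to 582), Fbln5 13.01-fold (8.98 to 19.5), Fbln2 5.95-fold (4.47 to 8.05), Eln 6.17-fold (2.77 to 16.2) and Mfap4 23.9-fold (3.92 to 979). The lung levels of Mfap4 and Eln did not stand above those of T cell-like cells of the same library. For Mfap4 the level was 18.9 CPM, with 16 of 26 UMIs in 4 cells, and 0.457% of cells after thinning (0.0116% to 2.52%), against 44.1 CPM and 4.13% (1.36% to 9.38%) in T cell-like cells. Fbln1 was at 1.97 (0.755 to 5.71). With cluster 4 in the lung class, all 10 members were higher in lung, with ratios of 226 for Fbn1, 75.7 for Fbln5, 31.4 for Eln, 10.7 for Fbln2 and 4.31 for Fbln1, whereas 3 were higher after 5% of the mean profile was removed. Of the 30 Fbln5 UMIs of brain endothelial-like cells, 4 cells held 25.

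The 19 related genes of the same pathway were read beside the members. Among them are microfibril proteins (Fbn2, Mfap2), emilins, other fibulins, latent TGF-beta binding proteins, other lysyl oxidases, enzymes and transporters that make the oxidases active, and fibrillin-binding ADAMTS proteins. Between matrix fibroblast-like and pericyte-like cells, 9 of the 19 were higher and 4 lower, beside 13.9% of all genes tested that were higher and 20.4% lower. Ltbp1 (21.9-fold, 17.4 to 27.9) and Ltbp4 (4.45-fold, 4.23 to 4.69), latent TGF-beta binding proteins of microfibrils, were among the higher ones. Ltbp2 was among the lower ones, at 43.1 against 679 CPM, a ratio of 0.0634 (0.0554 to 0.0723), as was Atp7a, the pump that brings copper to the oxidases, at 22.0 against 262 CPM. Efemp2, or fibulin-4, which brings Lox to tropoelastin, was within 2-fold, at 215 and 162 CPM.

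Pericyte-like cells carried several of the related genes. Beside Fbn1 at 363 CPM they had Ltbp2 at 679 CPM, Mfap2 at 527 CPM, Atp7a at 262 CPM, Efemp2 at 162 CPM and Fbn2 at 95.2 CPM. Of the named classes, myofibroblast-like cells had the highest Ltbp2, 1210 CPM, and the highest Adamts10, 374 CPM. Of these classes, smooth muscle-like cells had the highest Ltbp1, 739 CPM, and the highest Thsd4, 171 CPM, and they were lower than pericyte-like cells in Fbn2 (ratio 0.164), Mfap2 (0.316), Ltbp2 (0.0819), Loxl3 (0.105) and Atp7a (0.0510).

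**Figure D5:**
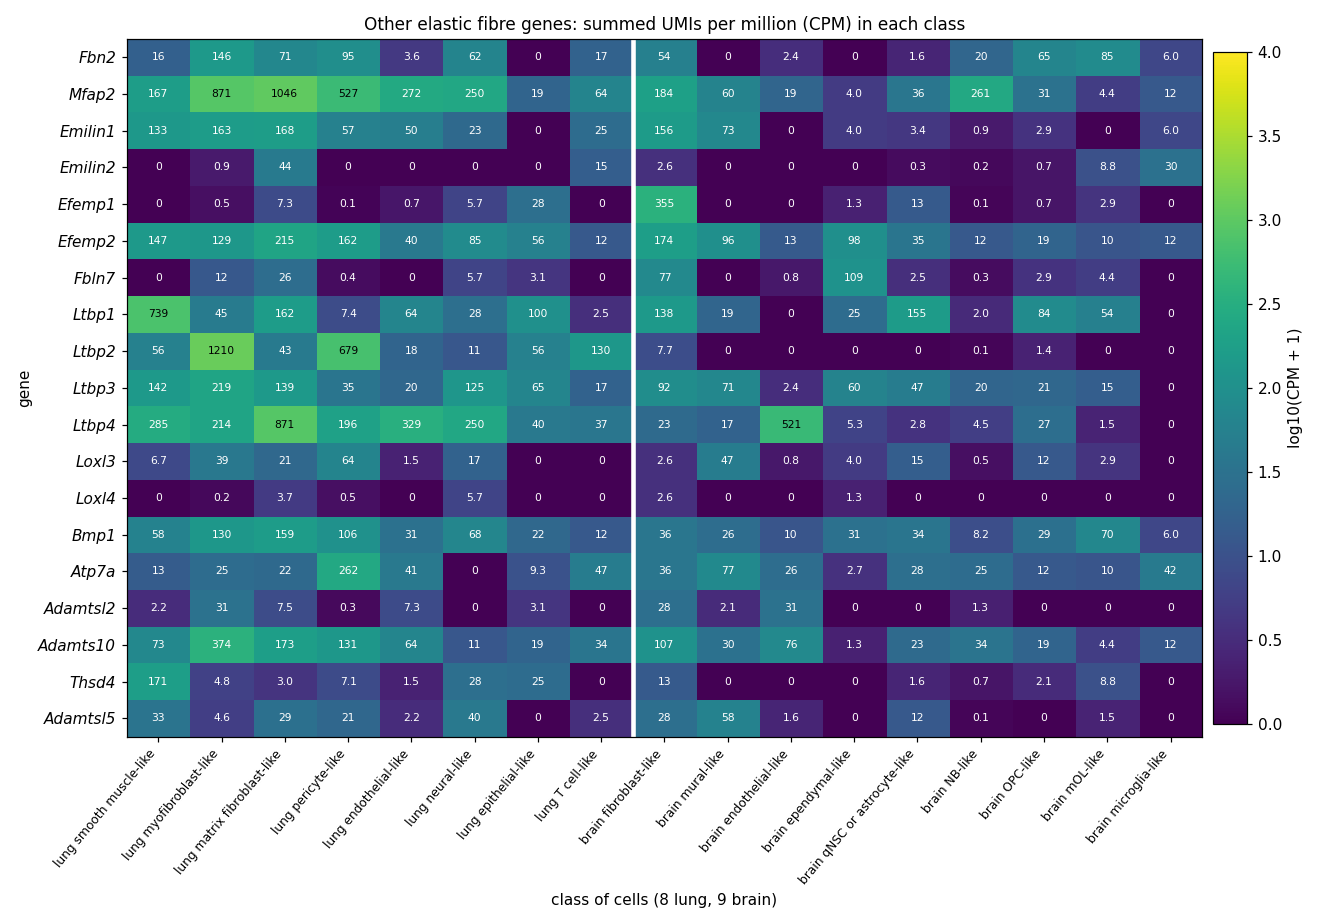
Level of 19 related elastic fibre genes in the same classes, drawn as for the 10 genes. Of these classes, Ltbp2 stood highest in lung myofibroblast-like (1210 CPM) and pericyte-like cells (679 CPM), Ltbp1 in smooth muscle-like cells (739 CPM) and Efemp1 in brain fibroblast-like cells (355 CPM).

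In the other lung comparisons with pericyte-like cells the related genes were counted by the same rule. Of the 16 with enough counts, 6 were higher and 2 lower in myofibroblast-like than in pericyte-like cells, beside 12.8% and 12.1% of all genes. Of 14, 4 were higher and 5 lower in smooth muscle-like cells, beside 11.2% and 20.4% of all genes. In endothelial-like cells 1 of 14 was higher, Ltbp1 (8.68-fold, 6.35 to 11.9), and 9 were lower, beside 13.7% and 17.2%. In the brain, 7 of 13 were higher and 3 lower in fibroblast-like than in mural-like cells, beside 10.3% and 20.1%. Efemp1, or fibulin-3, was foremost, with 139 UMIs (355 CPM) against 0, or 55.4-fold against the floor of 3 counts. Across tissues Efemp1 ran against most members, at 7.27 CPM in lung matrix fibroblast-like cells, a ratio of 0.0205 (0.0140 to 0.0294), and Ltbp4 ran with them, at 871 against 23.0 CPM (37.9-fold, 19.9 to 82.9). Brain endothelial-like cells were rich in Ltbp4, 521 CPM against 329 CPM in lung endothelial-like cells.

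The pattern of each member was compared over the 40 clusters of both libraries, by Pearson's r of log2(CPM + 10), among 15451 genes with at least 50 UMIs. The 10 members and the 19 related genes were left out as partners, so a member can lie closer than the genes named here. The clusters share 2 libraries and differ in depth, so r is a description. For Eln the closest genes were Thbs1 (0.92), Adamts2 and Adamts15 (both 0.90), and for Fbn1 the fibrillar collagen genes Col5a1, Col3a1 and Col1a1 (0.93, 0.93 and 0.92). Mfap4 was closest to Fibin (0.89), Mfap5 to Dpt (0.94), Lox to Osr1 (0.91) and Loxl1 to Adamts2 (0.91). The fibulins had weaker partners, Mdk for Fbln1 (0.78), Fam198b for Fbln2 (0.74) and Gata6 for Fbln5 (0.82). Loxl2 was closest to RP23-103I12.13 (0.98), a symbol not found in the annotation used here, so whether it overlaps Loxl2 was not examined, and then to Angptl2 (0.91).

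Between members, the closest pairs were Mfap4 and Loxl1 (r = 0.93 over 40 clusters, 0.92 over the 21 lung clusters) and Mfap4 and Mfap5 (0.91 and 0.89). Eln went most closely with Loxl1 (0.88 and 0.84) and less with Fbln5 (0.62 and 0.31). Fbln2 stood apart from 8 of the 9 other members, with r of -0.03 to 0.25 over 40 clusters, and was nearest to Fbln5 (0.59).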

How the data were processed

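Sequencing reads from 1 brain and 1 lung library were processed by the authors with UMI-tools, aligned to mm10 with STAR 2.7.1a and assigned to genes with featureCounts 1.6.4, and they deposited UMI counts per gene and cell, not normalized. The UMI-tools version differs between the submitters' processing notes (1.0.0) and the study's methods, and the annotation and strand setting are not given in the sources used here.

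From these counts, cells with over 200 and under 4000 genes and under 40% mitochondrial counts were kept. Each library was clustered in Seurat 5.3.0 (R 4.3.3) with 20 principal components at resolution 0.8, on 1924 variable genes in brain and 1928 in lung, without the 10 genes, 19 related genes and cell cycle genes. A cluster was named where its marker score was at least 1 and led the next by 0.5, at least 3 markers were found in 20% of its cells and other classes had no more markers among its 10 leading genes than its own class. A cluster with no marker of its own among them and a median depth under 1/3 of that of its library took no name. Scrublet (scanpy 1.11.5) called 44 brain and 74 lung doublets, which stayed in. UMIs were summed per class, with exact Poisson intervals for CPM, exact conditional binomial intervals for ratios and exact Clopper-Pearson intervals for shares (Python 3.11.15, NumPy 2.4.6, SciPy 1.17.1). A class with 0 UMIs was set to a floor of 3 counts over the class, and a ratio against it is a point value without an interval. The intervals cover counting error only. The computation of ratios and intervals was tested on simulated data. Positions came from GENCODE (GRCm38), matched by symbol.

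The 10 genes, the gene lists and the comparisons were chosen with earlier results of these data known. The genes named are the 10 members, the related genes of the list and the 3 genes outside both lists most like each member. The comparisons of lung clusters 3, 4 and 8 and the looser naming rule were chosen after seeing the data. The alternatives were other cell filters, removal of called doublets, resolutions 0.4 and 1.2, classes from markers in each cell and equal weight per cell. Others were totals without mitochondrial and ribosomal protein genes, removal of 5% of the mean profile, no minimum of UMIs, removal of shared barcodes and the looser naming rule. With totals without mitochondrial and ribosomal protein genes, all 22 counts and 110 ratios stayed.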

Additional observations from a re-analysis of the deposited data

How the results depend on the processing

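With 1 library per tissue no replicate could be left out, and the depth limits what can be said of classes with few UMIs. No paired analysis was possible because there were no replicates. Over the alternatives, 237 of the counts of members stayed within 1.5 times their value and 23 moved, and 1046 ratios stayed, 231 moved and 3 reversed. The counts for lung matrix fibroblast-like over pericyte-like and over myofibroblast-like cells, Col14a1-type over Col13a1-type cells, brain fibroblast-like over mural-like cells and lung matrix over brain fibroblast-like cells stayed within 1.5 times their value under every alternative run. So did smooth muscle-like over pericyte-like cells, except at resolution 0.4, where no smooth muscle-like class was left. Within that limit single genes still crossed 2-fold. Loxl1 passed it in matrix fibroblast-like over myofibroblast-like cells. Loxl2 fell to 1.80 in Col14a1-type over Col13a1-type cells and Mfap5 to 1.45 in smooth muscle-like over pericyte-like cells. For the comparisons whose counts moved, the cause was not tested. For myofibroblast-like over pericyte-like cells, 1 gene was lower at resolution 0.4. For lung endothelial-like over pericyte-like cells, 5 genes were higher without the upper limit on genes, and 5 were lower with over 500 genes and under 20% mitochondrial counts or with marker gates on each cell. For lung pericyte-like over brain mural-like cells, 8 genes were higher at resolution 0.4 and 9 with marker gates. For lung over brain endothelial-like cells, 9 were higher with no upper limit or no minimum of UMIs, 10 at resolution 0.4, with marker gates or with the looser naming rule, and 3 with 5% of the mean profile removed. For endothelial-like cells with arterial genes over the others, the genes higher were 3 with no upper limit or with marker gates, 0 with called doublets removed or equal weight per cell, 4 at resolution 0.4 or with the looser naming rule and 2 with no minimum of UMIs, and the genes lower were 2 with no upper limit and 0 at resolution 0.4, with marker gates or with the looser naming rule. The Eln ratio there reversed to 1.32 at resolution 0.4 and with the looser naming rule and to 1.28 with marker gates. With 5% of the mean profile removed, many low levels fell to 0, and their ratios were set by the subtraction and the floor of 3 counts. For endothelial-like over pericyte-like cells that of Fbln2 was then 933 and that of Fbln1 0.0246. That of Fbn1, with both levels above 0, was 0.242. The Mfap4 ratio of matrix fibroblast-like over pericyte-like cells was 43.4 with marker gates and 15079 against that floor. The arterial comparison could not be fitted with the stricter cell filter, and that of brain mural-like cells with contractile genes, 9 cells, was not run.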

Other observations

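The 489 brain and 373 lung barcodes that failed the cell filter also carried the genes. In the lung Eln was at 261 CPM in them against 497 CPM in the kept cells, a ratio of 0.525 (0.496 to 0.556), and Mfap4 at 464 against 852 CPM. Fbln2 was higher in the barcodes left out, at 113 against 74.7 CPM, a ratio of 1.51 (1.37 to 1.66), and Fbln1, Fbln5 and Loxl2 had ratios of 1.01, 1.07 and 0.993. In the brain Fbln1 was at 57.3 CPM in the barcodes left out and 66.3 CPM in the kept cells. Among brain clusters without a name, cluster 15, 70 cells led by Neurod1 and Eomes, had 103 CPM of Mfap4, 73.2 CPM of Fbln1 and 59.5 CPM of Loxl1.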
